A study of Mus musculus with 18 samples.

Results

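Cultured mouse astrocytes that had spent 7 days with neurons were compared with astrocytes that had spent 4 days with neurons, by RNA sequencing of bulk sorted cells. The comparison uses 6 of the 18 libraries of the study, the 3 libraries of the day 7 co-culture and the 3 of the day 4 co-culture, chosen by their labels and paired by replicate number. Per the labels, the astrocytes came from dissected cortex of newborn mice, were expanded in DMEM with fetal bovine serum for about 2 weeks and were moved to serum-free N2 medium at confluence. Both groups then received hippocampal neurons from newborn TdTomato+ mice, whose neurons carry a red fluorescent protein, so the groups differ in time with neurons and in the age of the culture together. At each time the cells were detached and sorted, and the TdTomato-negative gate was set on astrocytes grown without neurons. The labels give no strain or sex, and do not say how many animals stood behind a culture or whether replicates came from separate animals. Each replicate number has 1 date in the labels. A negative gate keeps every cell without the reporter, so it can also hold microglia, fibroblasts or neurons with little fluorescence. In bulk RNA, fewer cells of a type and less RNA per cell cannot be told apart. Astrocytes kept alone for 4 and 7 days (3 libraries each) served to set the change with neurons beside the change with time in culture.

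Astrocytes take up glutamate and GABA from synapses, buffer potassium through inwardly rectifying channels and secrete much of the matrix that surrounds neurons. Cortical astrocytes kept in serum resemble proliferating, immature cells, and contact with neurons is known to alter their shape and gene expression through Notch and other signals. The unfolded protein response raises chaperones of the endoplasmic reticulum (ER) when folding demand in that compartment is high, and the transcription factor Nrf2 drives genes of the glutathione and thioredoxin systems.

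Total counts ranged from 14102928 to 24730700 reads at day 4 and from 8966485 to 32623556 at day 7. The shallowest library, replicate 1 of day 7, stood apart. The mitochondrial ribosomal RNA mt-Rnr2 took 40.5% of its reads, against 10.8% to 17.8% in the other 5 libraries. A read was found for 80.98% of the tested genes there and for 83.05% in replicate 3 of day 4, against 91.08% to 98.52% in the other 4. The TMM scaling factor of replicate 1 of day 7 was 0.5613 against 0.9708 to 1.14 in the other 16 fitted libraries. Fitted values are therefore also given without that library, counts over pairs are also given for pairs 2 and 3, and the values of each gene are listed in the order of the replicates. Astrocyte markers were read throughout: the summed level of a 34-gene astrocyte identity list went from 7702 to 5979 CPM in pair 1, from 10314 to 11725 in pair 2 and from 14579 to 14225 in pair 3. In pair 2 the level of 1 member, Clu, given below, rose by more than the sum. The sum of the other members was thus lower at day 7 in every pair. Levels are in CPM, counts scaled by the TMM-corrected library size, and a pair is the day 7 and the day 4 library with the same replicate number.

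Almost no single gene passed a test across all genes. Of 17110 genes tested, 1 was called higher at day 7 and 0 lower by edgeR's quasi-likelihood test at an adjusted p under 0.05, that is 0.00584% and 0% of the genes. At an unadjusted p under 0.05 there were 1172 genes higher and 485 lower. The called gene was Lce1g (Entrez Gene 66195), a late cornified envelope gene of the skin. Its level was 308.5 CPM in replicate 1 of day 7 and at most 0.259 CPM in the other 5 libraries. Its log2 fold change of 9.80 ± 1.02 (SE; adjusted p = 0.0158, edgeR's quasi-likelihood test) thus rested on 1 library and was not called without the replicate block (adjusted p = 0.427, same test), and the day 7 and day 4 values overlapped. Without that library 17063 genes were tested and 0 (0%) were called, with 276 higher and 275 lower at an unadjusted p under 0.05 and a smallest adjusted p of 0.997 by the same test. DESeq2, run as an alternative, called 92 genes higher and 23 lower with 17 libraries (0.538% and 0.134%), and 4 higher and 16 lower without replicate 1 of day 7 (0.0234% and 0.0938%). Of the genes described below that were named by a set rule, DESeq2 called Esd, Ttyh1, Ltbp2 and Arvcf with 17 libraries. It called Arvcf also without replicate 1 of day 7 (adjusted p = 0.0189, DESeq2). Genes described outside that rule were not looked up among the DESeq2 calls with 17 libraries. The change with neurons was also set against the change alone in 1 model, as a difference of the 2 changes. No gene was called for that difference (0% of 17110), 463 had an unadjusted p under 0.05, and the smallest adjusted p was 0.0808, for Lce1g (edgeR's quasi-likelihood test). The genes below are accordingly described by their values in each pair and by fitted log2 fold changes, and none of them passed the adjusted threshold of edgeR's test.

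The gene lists had medians in both directions. The median fitted log2 fold change was below 0 for 24 of 35 lists with all 17 libraries and for 20 without replicate 1 of day 7, and it had the same sign in both for 27 lists. The median was below 0 in each of the 3 pairs for 9 lists and above 0 in each for 5. Over all genes tested, the median was -0.03 with 17 libraries and 0.04 without that library. The medians of all genes in pairs 1, 2 and 3 were -0.56, 0.01 and 0.02. The pair 1 median depended on which genes were taken. For genes with at least 20 reads in each of the 6 libraries, it was 0.68 (short transcripts), 0.28 (middle) and -0.18 (long). List medians of pair 1 are to be read beside these values as well as -0.56. As a background for the counts below, 10.8% of all genes tested were higher in 3 of 3 pairs and 12.7% were lower in 3 of 3 pairs. For pairs 2 and 3 alone, 25% were higher in both and 20% lower in both. All 3 day 7 values lay above all 3 day 4 values for 3.63% of genes, and below them for 4.22%. The ranking described below used 8275 well-read genes. Of these, 1322 were higher and 1022 lower in all 3 pairs, so higher genes were the more frequent there. Counts over 3 pairs are to be read beside both backgrounds.

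**Figure D1:**
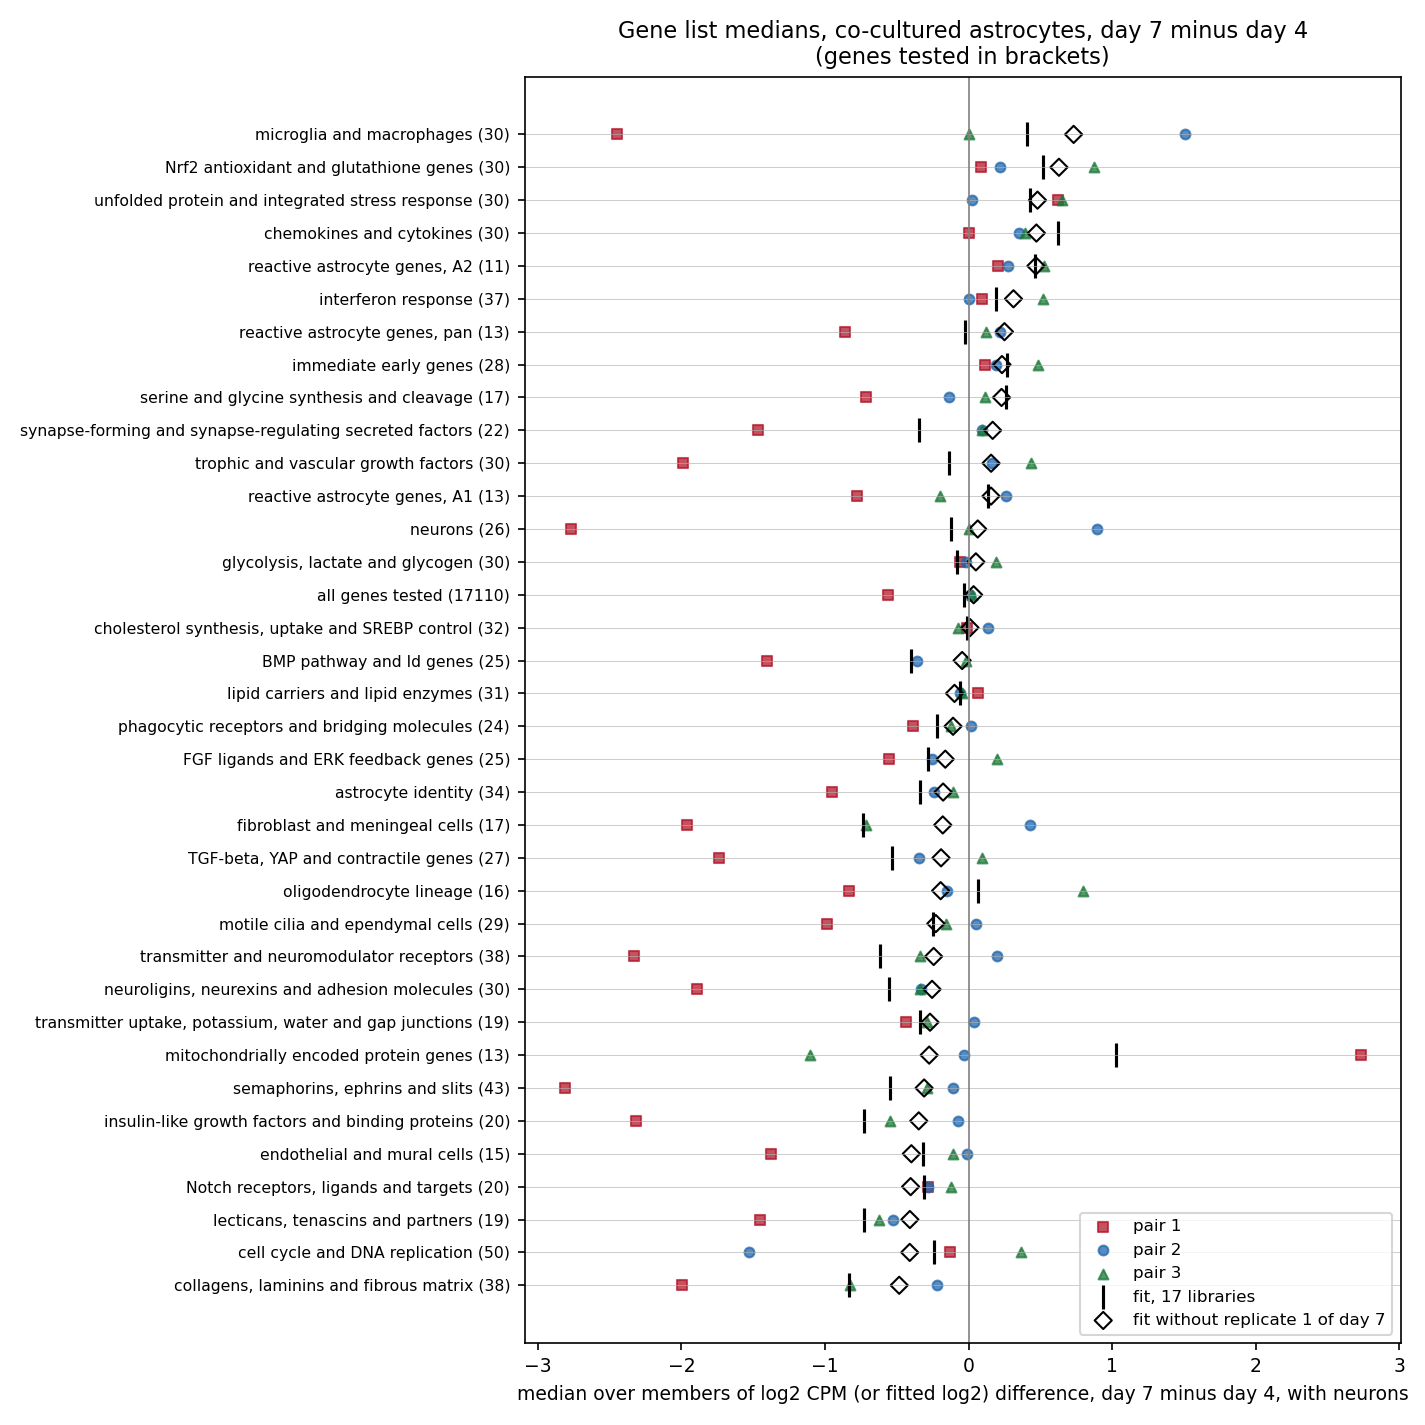
Median log2 difference, day 7 minus day 4, of each gene list and of all genes tested, with the number of genes tested in brackets. Squares, circles and triangles are pairs 1, 2 and 3, the bar is the fit of 17 libraries and the diamond the fit without replicate 1 of day 7. Pair 1 lies farthest from 0 for many lists, and the matrix list is the lowest diamond.

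Kcnj10 and Slc4a4, of the list for transmitter uptake, potassium, water and gap junctions, had lower values at day 7 in each pair, and neither passed the adjusted threshold. Kcnj10 (Entrez Gene 16513, the channel Kir4.1), the main potassium channel of astrocytes, was at 534, 421 and 1763 CPM in replicates 1, 2 and 3 of day 4 and at 230, 198 and 879 CPM in those of day 7. The level was lower by about the same factor in each pair, although the replicates differed so much in level that the groups overlapped. The fitted log2 fold change was -1.12 ± 0.38 (SE; adjusted p = 0.486, edgeR's quasi-likelihood test), and -1.24 ± 0.43 without replicate 1 of day 7. In astrocytes alone the fitted change had the opposite sign, 0.76 ± 0.38, with 272, 452 and 1683 CPM at day 4 and 635, 837 and 1665 CPM at day 7. The difference of the changes was -1.88 ± 0.53 on the log2 scale (unadjusted p = 0.0027, adjusted p = 0.997 by edgeR's quasi-likelihood test), and -2.04 without replicate 1 of day 7. Slc4a4, a sodium bicarbonate cotransporter, was at 668, 216 and 836 CPM and then at 159, 140 and 456 CPM. All pairs were lower, most so pair 1, with log2 fold changes of -1.21 ± 0.58 and -0.96 ± 0.66. Alone, Slc4a4 had a fitted log2 fold change of 1.11, set mainly by replicate 2, which went from 232 to 1396 CPM.

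**Figure D2:**
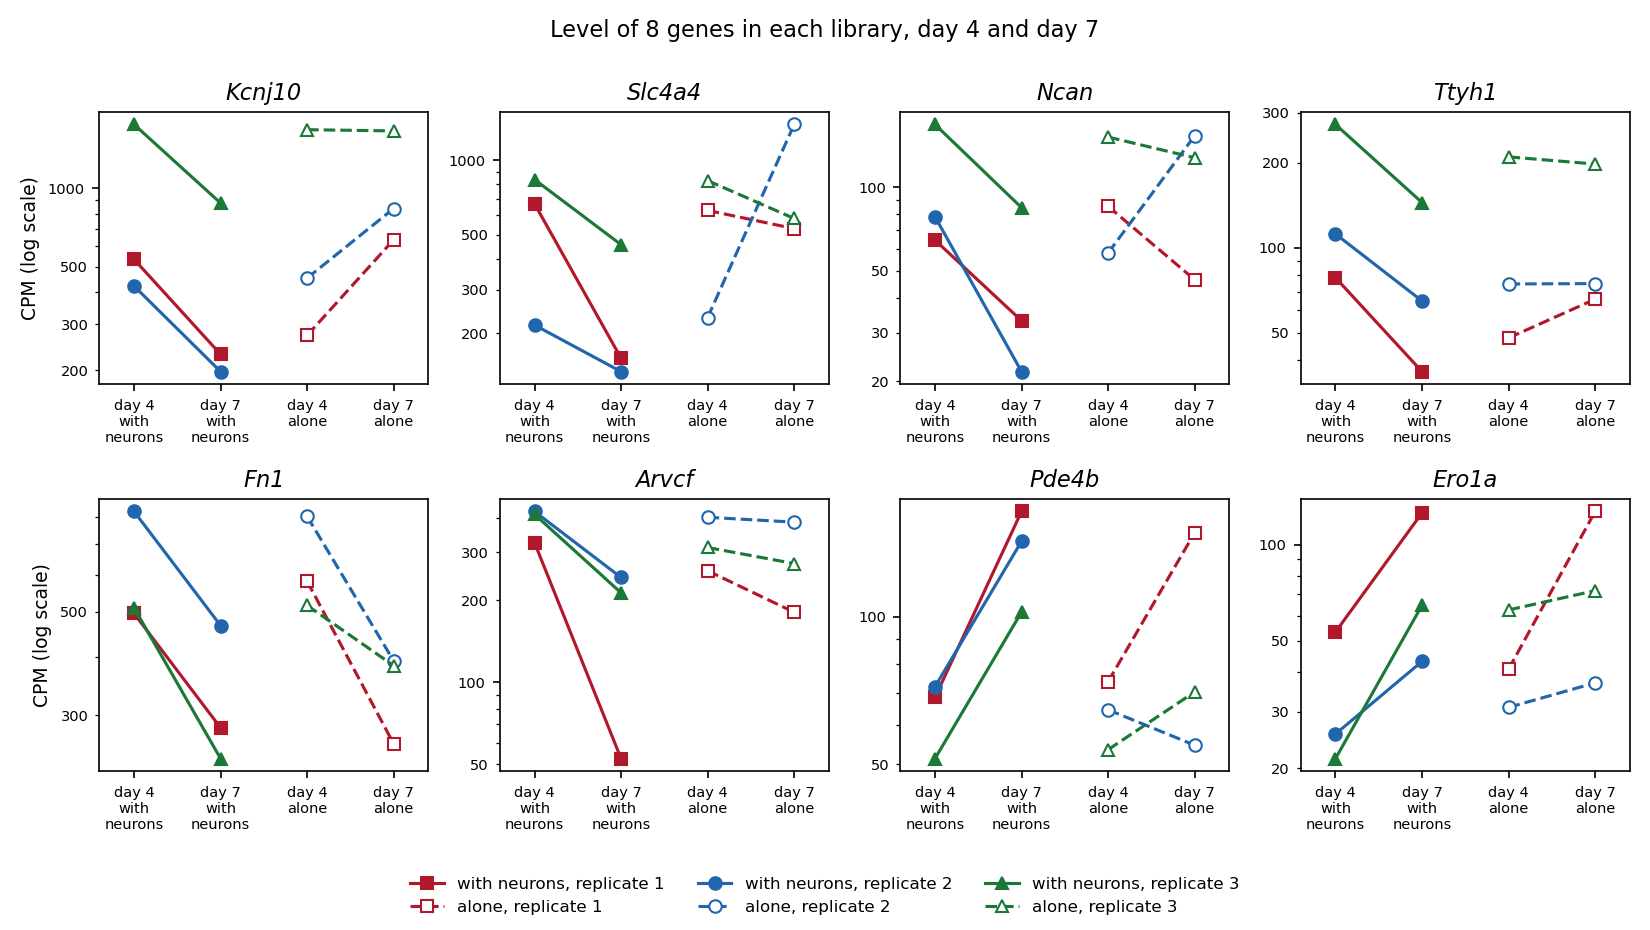
Level of 8 genes in CPM, on a log axis, in each library of day 4 and day 7, with neurons (filled, solid lines) and alone (open, dashed lines). Lines join libraries with the same replicate number; Kcnj10, Slc4a4, Ncan and Ttyh1 are lower at day 7 in all 3 pairs with neurons, and Kcnj10 is higher at day 7 in pairs 1 and 2 of astrocytes alone.

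Of the 19 tested genes of that transport list, 5 were lower in all 3 pairs and 0 higher, and in pairs 2 and 3 alone 7 were lower and 3 higher. Its median log2 fold change was -0.33 with neurons, -0.27 without replicate 1 of day 7 and 0.36 alone, and the median difference was -0.55, or -0.79 without replicate 1 of day 7. The pair medians with neurons were -0.43, 0.04 and -0.29, so pair 2 did not share the direction. In pair 1 the list lay above the median of all genes tested, -0.56. It lay below the pair 1 medians of genes with at least 20 reads in each library, 0.68, 0.28 and -0.18 by transcript length. The list was not limited to such genes. Not all members were lower. Slc1a3, the glutamate transporter GLAST, was at 549, 417 and 1295 CPM at day 4 and at 407, 347 and 1218 CPM at day 7, a small difference in every pair. Slc1a2, the glutamate transporter GLT-1, was at 47.7, 286 and 256 CPM and then at 45.4, 533 and 162 CPM, with pairs 2 and 3 going opposite ways. Aqp4, the water channel of astrocyte endfeet, was at 449, 692 and 1465 CPM and then at 316, 758 and 926 CPM, again mixed. Gja1, the gap junction protein connexin 43, had a fitted log2 fold change of 0.57 with and -0.15 without replicate 1 of day 7, so its sign depended on that library. Glul, glutamine synthetase, was at 371, 377 and 407 CPM at day 4 and 159, 400 and 491 CPM at day 7, low only in the library that stood apart.

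**Figure D3:**
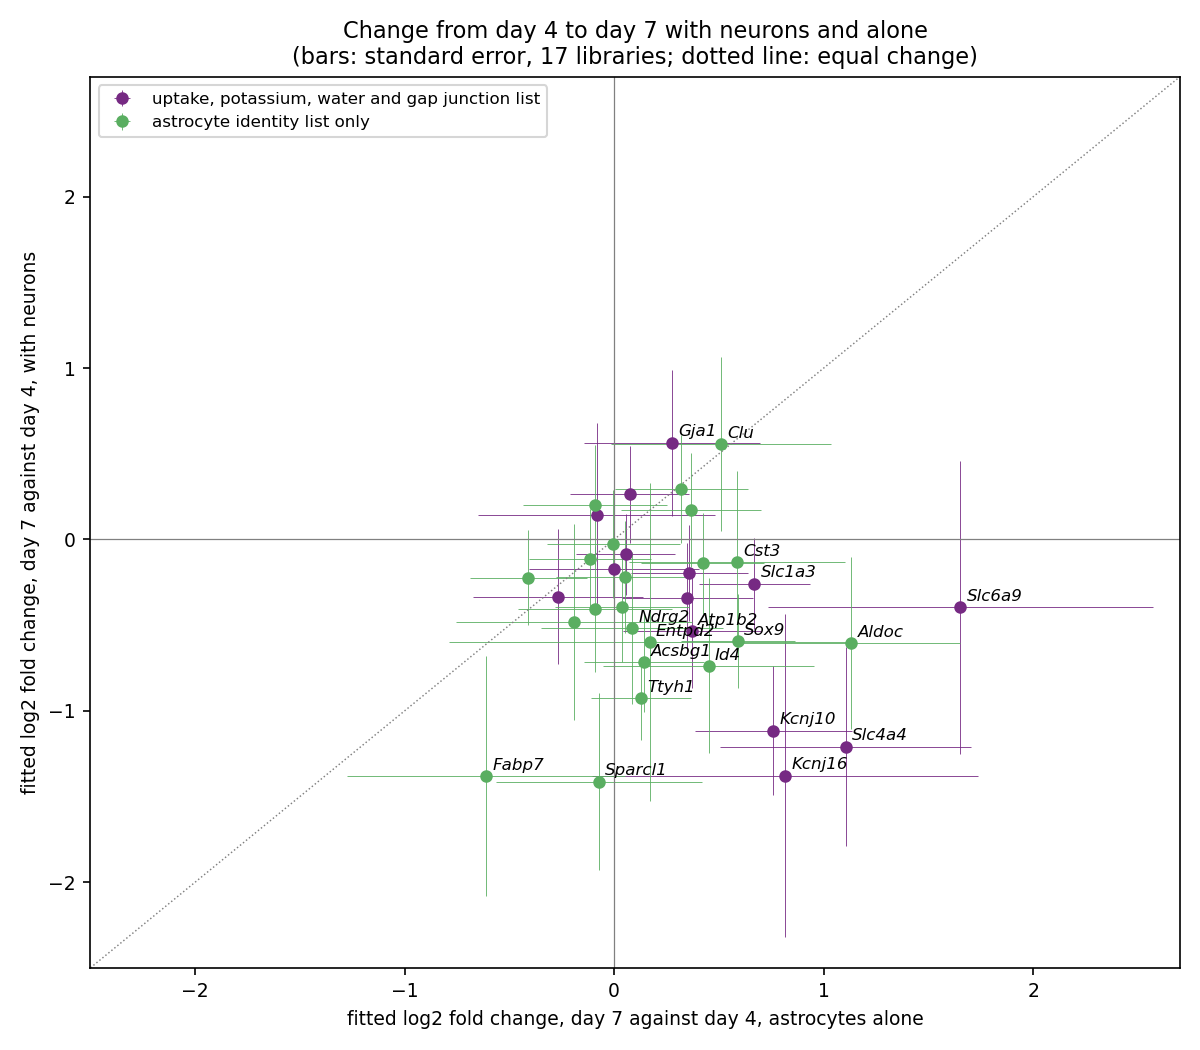
Fitted log2 fold change of day 7 against day 4 with neurons (vertical) and alone (horizontal) for members of the transport list and of the astrocyte identity list that average 1 log2 CPM or more (1 such member is not shown), with standard errors from 17 libraries. Names are given for members past 0.5 in either direction on either axis; Kcnj10 and Slc4a4 lie below the dotted line of equal change.

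The astrocyte identity list had a median close to that of the transport list with 17 libraries. Among the 34 identity genes, 7 were lower and 1 was higher in all 3 pairs, 10 were lower and 4 higher in pairs 2 and 3, and the median was -0.34 with and -0.18 without replicate 1 of day 7, against 0.14 alone. The pair medians were -0.95, -0.24 and -0.11. Ttyh1, a chloride channel homolog of neural progenitors and glia, was at 78.4, 112 and 273 CPM at day 4 and at 36.5, 64.8 and 144 CPM at day 7. Its pairs agreed closely, with a log2 fold change of -0.93 ± 0.24 and, without replicate 1 of day 7, -0.83 ± 0.24. Its difference from the change alone was -1.06 ± 0.34 (unadjusted p = 0.0065, adjusted p = 0.997 by edgeR's quasi-likelihood test). Sox9, a transcription factor of the astrocyte lineage, was at 133, 182 and 224 CPM and then at 57.6, 141 and 183 CPM, while alone it was higher at day 7 in each pair. Clu, the secreted chaperone clusterin, was the member higher in all 3 pairs, at 778, 2349 and 1577 CPM at day 4 and 813, 4145 and 2552 CPM at day 7. Gfap, the intermediate filament of mature and reactive astrocytes, was at 179, 620 and 2161 CPM and then at 275, 461 and 2357 CPM. Its replicates differed more than its days, and its fitted log2 fold change was 0.17 ± 0.33, or -0.17 ± 0.33 without replicate 1 of day 7. Aldh1l1, a folate enzyme used as a pan-astrocyte marker, was at 334, 257 and 246 CPM and then at 162, 313 and 268 CPM, with a log2 fold change of -0.22 with and 0.01 without replicate 1 of day 7. S100b was nearly unread, with at most 3.77 CPM in any of the 6 libraries. Notch1, a receptor for ligands on neighbouring cells, was at 539, 536 and 535 CPM at day 4 and at 393, 376 and 434 CPM at day 7, so its groups did not overlap. The log2 fold change of Notch1 was -0.42 ± 0.24, or -0.48 ± 0.26 without replicate 1 of day 7. After the correction for transcript length described below, it was -0.02 and -0.22, and the corrected differences of Notch1 in the 3 pairs were 0.16, -0.58 and 0.26. Of the 20 tested genes of the Notch list, 7 were lower in all 3 pairs and 11 in pairs 2 and 3. The Notch list median was -0.31 with and -0.40 without replicate 1 of day 7, and -0.07 and -0.22 after the same correction. Without replicate 1 of day 4 it was 0.0041.

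The structural matrix had fitted values below 0 for 31 of 38 genes, and for 34 without replicate 1 of day 7. Of these 38 genes for collagens, laminins and fibrous matrix, 18 were lower and 1 was higher in all 3 pairs, and 4 had all day 7 values below all day 4 values. In pairs 2 and 3 alone 19 were lower and 3 higher. The median log2 fold change was -0.83 with 17 libraries and -0.48 without replicate 1 of day 7, with pair medians of -2.0, -0.22 and -0.82. Alone it was -0.48, so astrocytes without neurons had a lower median too, and the median difference of the changes was -0.30 with and -0.29 without replicate 1 of day 7. Fn1 (Entrez Gene 14268), fibronectin, was at 496, 821 and 510 CPM at day 4 and at 282, 467 and 242 CPM at day 7. No day 7 value of Fn1 reached a day 4 value, and its log2 fold change was -0.89 ± 0.31 (adjusted p = 0.486, edgeR's quasi-likelihood test), or -0.81 ± 0.35 without replicate 1 of day 7. In astrocytes alone Fn1 had a log2 fold change of -0.85 ± 0.31, and the difference of the changes was -0.04 ± 0.43, or -0.01 without replicate 1 of day 7. Lamc1, a laminin chain of basement membranes, was at 267, 383 and 384 CPM and then at 106, 308 and 173 CPM, with log2 fold changes of -0.92 ± 0.28 and -0.68 ± 0.27, while alone its fitted change was 0.08. Loxl2, an enzyme that crosslinks collagen, was at 138, 124 and 99.5 CPM and then at 71.1, 67.1 and 75.3 CPM, without overlap, and its log2 fold changes were -0.73 ± 0.29 and -0.64 ± 0.31. Col8a1, a short-chain network collagen, was at 560, 324 and 283 CPM and then at 95.5, 277 and 136 CPM, also without overlap, with -1.19 ± 0.39 and -0.77 ± 0.36. Ltbp2, a fibrillin-binding matrix protein of the TGF-beta list, was at 597, 573 and 519 CPM and then at 167, 369 and 265 CPM. Its groups did not overlap either, with log2 fold changes of -1.11 ± 0.30 and -0.83 ± 0.29. Exceptions to the direction included Lox, lysyl oxidase, higher in all 3 pairs at low levels (15.1, 11.8 and 0.145 CPM at day 4, 28.7, 15.7 and 3.30 CPM at day 7). Another was Fbln1, fibulin 1, at 199 CPM in replicate 1 of day 7 and 8.29 to 20.3 CPM elsewhere.

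**Figure D4:**
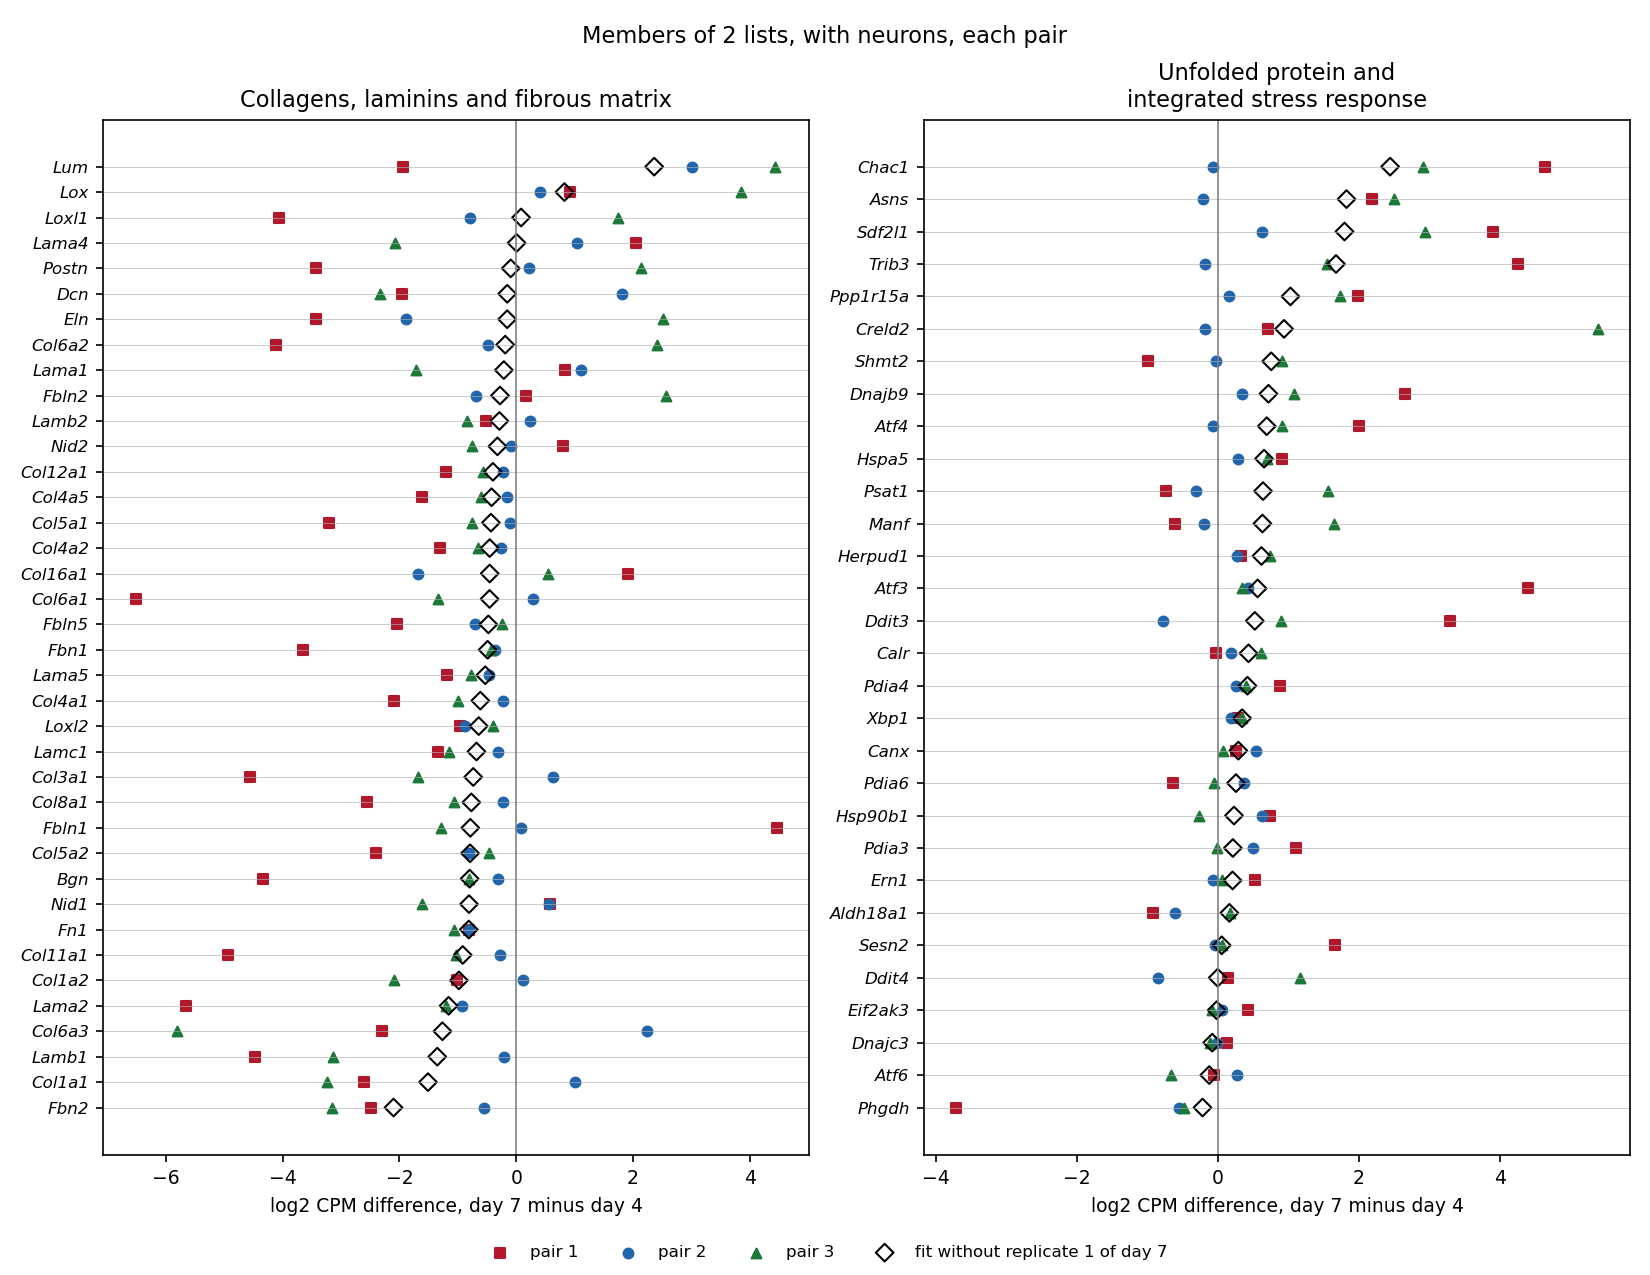
Log2 CPM difference of day 7 minus day 4 in each pair for the members of the matrix list (left) and of the unfolded protein and integrated stress response list (right), sorted by the fit without replicate 1 of day 7 (diamonds). Squares, circles and triangles are pairs 1, 2 and 3; most diamonds lie below 0 on the left and above 0 on the right.

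Fibroblast markers were examined beside the matrix genes. Dcn, Lum, Col1a1, Col1a2 and Col3a1 are on both lists, so the lists are not independent. The median of the fibroblast and meningeal list was -1.96, 0.43 and -0.71 in pairs 1, 2 and 3, so pair 2 went the other way than the matrix median. The summed level of the fibroblast and meningeal list went from 10773 to 3775 CPM in pair 1, from 9567 to 6436 CPM in pair 2 and from 20570 to 12520 CPM in pair 3. Igfbp5, a secreted binding protein that astrocytes also make, took 91.6% to 97.0% of each sum. Without Igfbp5 the sums were 543 and 155 CPM in pair 1, 493 and 543 CPM in pair 2, and 650 and 370 CPM in pair 3. The remaining markers thus were lower in pairs 1 and 3 only, and their part in the matrix result was not tested. Of the 20 genes of the insulin-like growth factor list, which also holds Igfbp5, 8 were lower and 0 higher in all 3 pairs, 8 were lower and 3 higher in pairs 2 and 3, and the median was -0.73 with and -0.35 without replicate 1 of day 7. Igfbp5 itself was at 10230, 9074 and 19920 CPM at day 4 and at 3620, 5893 and 12150 CPM at day 7, with log2 fold changes of -0.95 ± 0.36 and -0.78 ± 0.40, while its fitted log2 fold change alone was 0.40 ± 0.36.

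Proteoglycans of the perineuronal matrix and their partners had fitted values below 0 for 14 of 19 genes. Among 19 genes for lecticans, tenascins and their partners, 7 were lower and 0 higher in all 3 pairs and 8 lower and 3 higher in pairs 2 and 3, with pair medians of -1.45, -0.53 and -0.62. The median fit was -0.73 with and -0.41 without replicate 1 of day 7, against -0.06 alone. Ncan, the lectican neurocan, was at 64.6, 78.4 and 169 CPM at day 4 and at 33.1, 21.7 and 84.5 CPM at day 7. Its log2 fold change was -1.23 ± 0.41 with and -1.37 ± 0.45 without replicate 1 of day 7. Alone, its pairs went different ways, from 85.5, 58.0 and 152 CPM to 46.5, 154 and 128 CPM. Ptprz1, a receptor phosphatase that binds tenascins, was at 346, 278 and 689 CPM and then at 107, 175 and 440 CPM, with log2 fold changes of -0.96 ± 0.33 and -0.67 ± 0.32. Tnc, tenascin C, was at 1608, 1990 and 663 CPM and then at 588, 1021 and 679 CPM, so pair 3 did not share the direction of the others. Vcan, the lectican versican, behaved otherwise. It was at 70.8, 115 and 60.3 CPM at day 4 and at 547, 123 and 39.1 CPM at day 7, and its fitted log2 fold change was 1.21 with and -0.12 without replicate 1 of day 7. Alone, Vcan went from 107, 107 and 102 CPM to 36.3, 54.5 and 18.5 CPM, a fitted change of -1.68 ± 0.55. The difference of the changes for Vcan was 2.89 ± 0.79, and 1.51 without replicate 1 of day 7 (adjusted p = 0.997, edgeR's quasi-likelihood test).

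Genes for contact and signalling with neurons had similar counts. Of 30 neuroligins, neurexins and adhesion molecules, 10 were lower and 0 higher in all 3 pairs, 10 were lower and 2 higher in pairs 2 and 3, and 4 had groups that did not overlap. The list median was -0.56 with and -0.25 without replicate 1 of day 7, and -0.05 in astrocytes alone. Ncam1, a neural adhesion molecule, was at 221, 206 and 259 CPM at day 4 and at 146, 157 and 168 CPM at day 7. Nlgn2, a neuroligin found at inhibitory synapses and in astrocytes, was at 108, 119 and 113 CPM and then at 37.1, 95.9 and 69.2 CPM. Neither gene had overlapping groups, and without replicate 1 of day 7 their log2 fold changes were -0.55 ± 0.29 and -0.41 ± 0.27. Of 43 semaphorins, ephrins, slits and their receptors, 10 were lower and 0 higher in all 3 pairs, and 15 were lower and 6 higher in pairs 2 and 3. The semaphorin list median was -0.55 with and -0.31 without replicate 1 of day 7. In astrocytes alone it was -0.31 too. Sema3f, a secreted repulsive cue, was at 69.1, 61.9 and 49.7 CPM and then at 5.38, 42.1 and 20.5 CPM. Of 38 transmitter receptors, 11 were lower and 2 higher in all 3 pairs, and 13 were lower and 8 higher in pairs 2 and 3. Their median was -0.62 with and -0.24 without replicate 1 of day 7, and -0.32 in astrocytes alone. The pair medians of these receptors were -2.33, 0.20 and -0.34, so pair 2 went the other way and pair 1 lay farthest from 0. Grm3, the metabotropic glutamate receptor mGluR3 of astrocytes, was at 9.30, 5.62 and 29.4 CPM and then at 0.598, 3.04 and 3.20 CPM. Its day 7 values were all below its day 4 values, at low levels.

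Secreted factors that act on synapses had no common direction. Of 22 such genes, 4 were higher and 4 lower in all 3 pairs, 7 were higher and 6 lower in pairs 2 and 3, and the median was -0.34 with and 0.17 without replicate 1 of day 7. Gpc6, a glypican that promotes synapses carrying AMPA receptors, was at 122, 56.5 and 89.2 CPM at day 4 and at 29.1, 46.7 and 40.6 CPM at day 7. The related glypican Gpc4 was at 1435, 1523 and 1347 CPM and then at 256, 1225 and 1289 CPM, so most of its difference lay in pair 1. Thbs1, a thrombospondin that induces synapses, was at 3292, 3219 and 1293 CPM and then at 1221, 2059 and 1188 CPM. Bdnf, a neurotrophin, was higher in each pair, by the largest factor in pair 3, with 27.9, 16.8 and 8.83 CPM at day 4 and 35.1, 18.8 and 15.1 CPM at day 7.

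Long transcripts had a median below 0 and short ones above 0 in pairs 1 and 3. Genes with at least 20 reads in each of the 6 libraries were split into 3 equal groups by their longest annotated transcript. Pair 1 had a median log2 difference of 0.68 for the short, 0.28 for the middle and -0.18 for the long group, and pair 3 had 0.39, 0.01 and -0.34. Pair 2 had -0.01, 0.03 and 0.06, and the fit in astrocytes alone had 0.10, 0.04 and -0.03. The matrix genes are long, with a median of 5806 bases, and the stress genes described next are short, with 2268 bases. After a correction for the length trend in each library, the matrix median was -0.64 with and -0.37 without replicate 1 of day 7. The same correction gave -0.64 and -0.34 for the lectican list, -0.13 and -0.23 for the transport list and -0.51 and -0.21 for the semaphorin list. Each of these fitted medians kept its sign, closer to 0 than before. The corrected medians of pairs 1, 2 and 3 stayed below 0 for the matrix and lectican lists. They were -2.28, -0.17 and 0.12 for the semaphorin list, so pair 3 changed its sign, and -0.03, 0.01 and -0.31 for the transport list. For the neuroligin list the corrected fits were -0.37 and -0.19, with pair medians of -1.35, -0.36 and -0.06. For Kcnj10 the corrected log2 fold changes were -0.86 and -1.17, and for Fn1 -0.58 and -0.65.

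**Figure D5:**
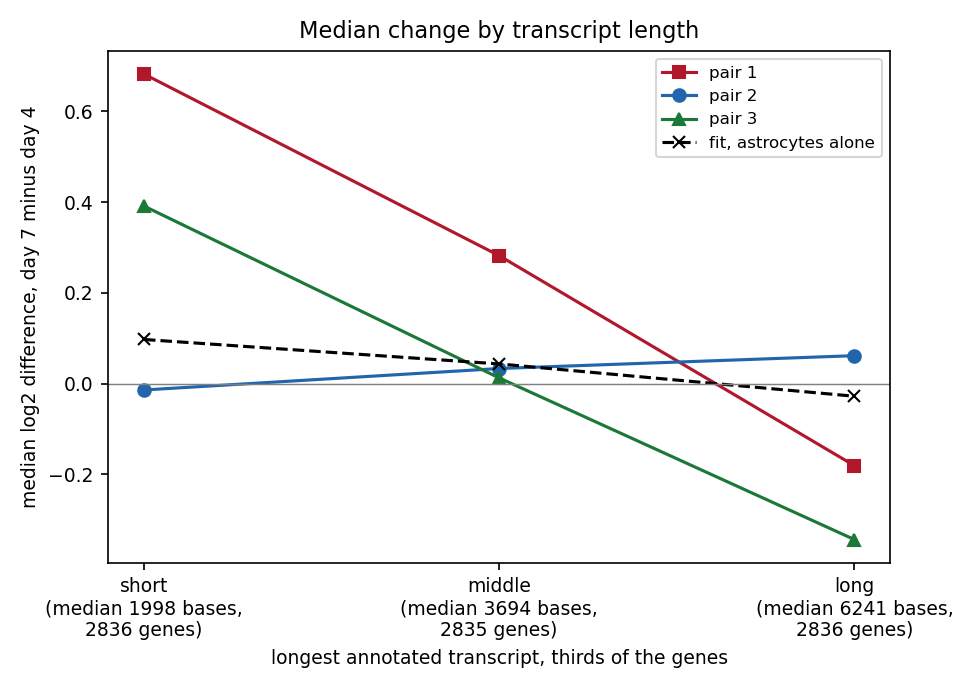
Median log2 difference of day 7 minus day 4 in 3 groups of genes by the length of the longest annotated transcript, for pairs 1, 2 and 3 with neurons and for the fit of astrocytes alone. The lines of pairs 1 and 3 slope down from short to long transcripts, and those of pair 2 and of astrocytes alone are nearly flat.

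Of 30 genes of the unfolded protein and integrated stress response, 26 had a fitted value above 0, and 9 were higher in all 3 pairs. The ER stress response element of their promoters (CCAAT and CCACG with 9 free bases between them, searched on both strands) is shown for 3 of the 7 members that hold it, because this element is the known target sequence of the response. These 3 were picked with their values known. The stretches below are RefSeq sequence of GRCm38.p6 with the element in capitals, read along the strand of the gene.
Hspa5 (chr2:34772005-34772063, plus strand): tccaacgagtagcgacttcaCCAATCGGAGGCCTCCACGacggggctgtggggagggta
Canx (chr11:50325780-50325838, minus strand): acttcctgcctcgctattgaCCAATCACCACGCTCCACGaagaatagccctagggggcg
Creld2 (chr15:88819500-88819558, plus strand, element on the other strand): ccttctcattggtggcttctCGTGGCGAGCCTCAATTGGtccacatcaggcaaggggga
The element was found in 7 of the 28 list members with a promoter in the RefSeq table, and in 39 of 32851 promoters of 250 bases before to 50 after a start (0.119%), or 23 of 15733 of tested genes (0.146%). Such a match is a description of letters and not of binding.

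Hspa5 (BiP), the main chaperone of the ER, was at 535, 689 and 609 CPM at day 4 and at 1004, 837 and 988 CPM at day 7. All day 7 values lay above all day 4 values, with log2 fold changes of 0.61 ± 0.37 (adjusted p = 0.553, edgeR's quasi-likelihood test) and 0.66 ± 0.40 without replicate 1 of day 7. In astrocytes alone Hspa5 went from 399, 487 and 456 CPM to 1809, 533 and 609 CPM, so it was higher without neurons too. Canx, the lectin chaperone calnexin, was at 894, 835 and 835 CPM and then at 1068, 1219 and 881 CPM. Creld2, a secreted ER stress target, was at 16.2, 19.1 and 0.290 CPM and then at 26.7, 16.9 and 15.8 CPM, with pair 2 slightly lower. The other 4 members with the element had fitted log2 fold changes of 0.38 (Hsp90b1), 0.27 (Calr), 0.01 (Dnajc3) and -0.06 (Pdia6). Over the list, 9 of 30 genes were higher and 1 was lower in all 3 pairs, and 5 had all day 7 values above all day 4 values. In pairs 2 and 3 alone 10 were higher and 2 lower. The median was 0.43 with and 0.48 without replicate 1 of day 7 and 0.58 alone, and the pair medians were 0.62, 0.02 and 0.65. Dnajb9, a BiP co-chaperone, was at 55.2, 52.4 and 45.4 CPM and then at 346, 66.7 and 95.7 CPM. Herpud1, which acts in the disposal of misfolded proteins, was at 47.0, 47.1 and 47.3 CPM and then at 59.2, 56.9 and 79.5 CPM. Ppp1r15a (GADD34), which reverses the block of translation, was at 71.6, 65.4 and 40.2 CPM and then at 283, 73.1 and 133 CPM. These 3 genes also had groups that did not overlap, with small differences in pair 2. Their log2 fold changes were 1.51, 0.48 and 1.44, and without replicate 1 of day 7 0.72, 0.62 and 1.03. In the branch for amino acid supply, Asns, asparagine synthetase, was at 19.6, 17 and 17.5 CPM and then at 89.9, 14.8 and 99.3 CPM, and its transcription factor Atf4 was at 91.8, 74.1 and 125 CPM and then at 367, 70.4 and 235 CPM. Both were higher in pairs 1 and 3 and slightly lower in pair 2, and their fits without replicate 1 of day 7 were 1.82 ± 0.69 and 0.69 ± 0.44. After the length correction the list median was 0.46 with and 0.33 without replicate 1 of day 7.

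Antioxidant genes of the Nrf2 list had fitted values above 0 for 24 of 30 members. Their response element has the core TGACNNNGC, and 2 promoters, of genes higher in every pair, are shown with that core in capitals, both on the strand opposite to the gene.
Gclm (chr3:122245403-122245451, plus strand): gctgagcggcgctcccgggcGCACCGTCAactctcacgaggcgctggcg
Prdx1 (chr4:116685446-116685494, plus strand): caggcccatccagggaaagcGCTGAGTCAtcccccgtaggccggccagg
The core is short and frequent: it was in 12 of 25 list members with a promoter, in 12.4% of all promoters and in 13.9% of those of tested genes. Nfe2l2, which encodes Nrf2, and G6pdx also hold it, with fitted log2 fold changes of -0.19 and 0.04. Gclm, a subunit of the enzyme that starts glutathione synthesis, was at 50.8, 41.1 and 95.7 CPM at day 4 and at 84.9, 87.6 and 108 CPM at day 7. Prdx1, a peroxiredoxin that removes peroxides, was at 155, 169 and 169 CPM and then at 429, 207 and 245 CPM, without overlap. Srxn1, which restores oxidised peroxiredoxins, was at 121, 111 and 248 CPM and then at 241, 157 and 485 CPM. Each of the 3 was higher in every pair, and their log2 fold changes without replicate 1 of day 7 were 0.61, 0.42 and 0.89. Of the 30 genes, 9 were higher and 0 lower in all 3 pairs. In pairs 2 and 3 together 20 were higher and 1 lower. The median was 0.52 with and 0.63 without replicate 1 of day 7, and 0.34 alone. After the length correction it was 0.21 and 0.30. The pair medians were 0.09, 0.22 and 0.87, and 0.10, 0.22 and 0.38 after that correction, so pair 3 was the highest. In pair 1 the list lay below the 0.68 of the short transcript group. Replicate 1 of day 7 split this list: Gsr, glutathione reductase, was at 0.996 CPM there against 54.3 CPM in its day 4 partner, while pairs 2 and 3 were higher, at 110 against 55.4 CPM and 81.7 against 30.3 CPM.

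Cell division genes differed between pairs. Of 50 tested genes, 9 were lower and 2 higher in all 3 pairs, and 19 were lower and 3 higher in pairs 2 and 3. The pair medians were -0.13, -1.53 and 0.36, and the fitted median was -0.24 with and -0.41 without replicate 1 of day 7. In astrocytes alone the fitted median was -0.41 as well. Top2a, a topoisomerase of dividing cells, was at 11.3, 48.6 and 14.0 CPM at day 4 and at 1.40, 13.2 and 9.84 CPM at day 7, and alone its fitted log2 fold change was -1.57 ± 0.58 against -1.50 ± 0.58 with neurons. Kif20a, a kinesin of cytokinesis, was at 5.37, 9.29 and 21.6 CPM and then at 3.79, 3.89 and 3.72 CPM. Cdkn1a (p21), an inhibitor of the cell cycle, was at 538, 467 and 447 CPM and then at 1243, 544 and 603 CPM. Neither Kif20a nor Cdkn1a had overlapping groups, and their fits without replicate 1 of day 7 were -1.76 ± 0.72 and 0.38 ± 0.33. Ccnd1, cyclin D1, went from 2627, 1627 and 378 CPM to 538, 1246 and 1138 CPM, down in pairs 1 and 2 and up in pair 3.

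Among inflammatory genes, 10 of 30 chemokines and cytokines were higher and 2 lower in all 3 pairs, and 13 were higher and 2 lower in pairs 2 and 3. The fitted median of these 30 genes was 0.62 with and 0.47 without replicate 1 of day 7. Their pair medians were 0, 0.35 and 0.39, each below the fitted 0.62, and -1.07, 0.38 and 0.17 after the length correction. Cxcl1, which attracts neutrophils, was at 29.6, 69.8 and 15.0 CPM at day 4 and at 502, 194 and 54.2 CPM at day 7, the highest being the library that stood apart. Ccl2, which attracts monocytes, was at 28.6, 66.8 and 8.40 CPM and then at 68.0, 143 and 15.6 CPM. Their log2 fold changes were 2.48 ± 0.84 and 1.08 ± 0.60, or 1.91 and 1.18 without replicate 1 of day 7. Alone, the 2 genes were higher at day 7 in pairs 1 and 3 and lower in pair 2. Microglial markers did not follow a single direction. Their summed level went from 149 to 459 CPM in pair 1, from 309 to 768 CPM in pair 2 and from 79.5 to 58.5 CPM in pair 3. The pair medians of these markers were -2.45, 1.51 and 0, so in pair 1 the sum and the median went opposite ways. In that pair 28 of the 30 markers had a read at day 4 and 14 at day 7. The part of microglial markers in the chemokine values was not tested. Aif1, which defines microglia, was at 0.0370, 2.07 and 0 CPM at day 4 and at 0, 6.16 and 0 CPM at day 7. In pair 3, 8 of 30 microglial markers had a read at day 4 and 10 at day 7, with 1099 and 1244 reads in all. After the length correction the differences of Ccl2 were 0.57, 1.16 and 0.10 in the 3 pairs, and those of Cxcl1 were 4.01, 1.49 and 1.45. Of 11 genes of the A2 reactive list, 6 were higher and 1 lower in all 3 pairs, and 6 were higher and 2 lower in pairs 2 and 3. Ptgs2, the inducible cyclooxygenase, was one of them, at 11.6, 14.4 and 15.9 CPM and then at 222, 17.4 and 23 CPM, so its fitted log2 fold change of 2.53 became 0.32 without replicate 1 of day 7.

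A ranking by the smallest of the 3 pair differences, among well-read genes, named further genes with a sizeable difference in every pair, though not always an even one. Of 8275 such genes, 1322 were higher and 1022 lower in all 3 pairs. Pde4b, a phosphodiesterase that breaks down cyclic AMP, was at 68.5, 72.0 and 51.3 CPM at day 4 and at 164, 142 and 102 CPM at day 7. Its groups did not overlap, and the log2 fold change was 1.08 ± 0.32 with and 1.06 ± 0.32 without replicate 1 of day 7. Ero1a, an oxidase that forms disulfide bonds in the ER, was at 53.3, 25.6 and 21.4 CPM and then at 126, 43.1 and 64.6 CPM, with 1.17 ± 0.35 and 1.02 ± 0.35. Esd, an esterase, was at 112, 115 and 61.2 CPM and then at 874, 215 and 171 CPM, and its log2 fold change went from 1.94 to 1.19 without replicate 1 of day 7. Downward, Arvcf, a catenin of cell junctions, was at 325, 423 and 413 CPM at day 4 and at 52.4, 242 and 213 CPM at day 7. Arvcf had log2 fold changes of -1.36 ± 0.32 and -0.94 ± 0.24, against -0.26 ± 0.32 alone. Miat, a long noncoding RNA, was at 48.4, 13.1 and 163 CPM and then at 22.7, 6.25 and 42.1 CPM, with -1.35 ± 0.45 and -1.70 ± 0.48. Npr3, the clearance receptor of natriuretic peptides, was at 51.2, 43.2 and 48.9 CPM and then at 26.3, 24.2 and 26.8 CPM, without overlap, with -0.88 ± 0.37 and -0.75 ± 0.36. Eno1b, which can share reads with its near-identical copy Eno1, was also in this ranking and is uncertain.

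For the 32 cholesterol genes the medians were -0.01 with and 0.01 without replicate 1 of day 7, and for 30 glycolysis and lactate genes they were -0.08 and 0.05. Immediate early genes, which respond within minutes to activity and growth factors, had 21 of 28 members with a fitted value above 0, with 6 higher and 2 lower in all 3 pairs. Their medians were 0.27 and 0.23, and the pair medians were 0.11, 0.19 and 0.48. Interferon response genes had 23 of 37 above 0, and 30 without replicate 1 of day 7, with 6 higher and 3 lower in all 3 pairs. Their medians were 0.19 and 0.31, and the pair medians were 0.10, 0.0009 and 0.52. The neuron list summed to 589 and 530 CPM in pair 1, 378 and 370 CPM in pair 2, and 459 and 412 CPM in pair 3. Its members differed more between pairs than these sums, with pair medians of -2.77, 0.90 and 0. Its defining gene Dcx, for migrating young neurons, was at 3.45, 0.106 and 0 CPM and then at 0, 3.71 and 0 CPM. The 13 mitochondrially encoded protein genes had pair medians of 2.73, -0.03 and -1.11, so their fitted median of 1.03 became -0.27 without replicate 1 of day 7.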

How the data were processed

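RNA was sequenced from 18 libraries of sorted cultured astrocytes, 6 groups of 3. Per the labels' protocols, TRIzol was used for extraction and RiboGone against ribosomal RNA, before SMARTer kits for low input and Illumina sequencing. The deposited table holds unnormalized read counts per Entrez gene for 26301 genes, which the authors made with Subread and featureCounts on mm9 per the submitters' processing notes. Whether strand was used, and with which versions, is not given in the sources used here. Overlapping and antisense genes are therefore uncertain. Symbols came from RefSeq for 24191 genes and from GENCODE for 16 more, and 17 columns of correlations were not used.

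Counts were fitted in R 4.3.3 with edgeR 4.0.16 (TMM scaling, filterByExpr by group, quasi-likelihood F test, Benjamini-Hochberg adjustment over all genes tested, threshold 0.05). The fit used 17 libraries, all but replicate 1 of astrocytes alone at day 2 (92.5% of reads on 1 gene), with group means and the replicate number as a block, and was repeated without replicate 1 of day 7 with neurons (16 libraries). The numbers pair the samples because the labels give each number 1 date. Deviations of same-numbered samples correlated at 0.098, 0.247 and 0.128, those of other numbers at -0.135 to 0.006. Deviations from a group mean cancel within the group, so positive values for the same number push the others below 0. That contrast is therefore partly built in. Where separate cultures are not stated, p-values measure the spread between these samples, which may be technical. Genes without a read in 8 given libraries and with reads in the 8 others (30 genes) were kept out of the fits. Pair differences are log2 CPM with a prior count of 2. The 35 gene lists and the comparison were chosen with earlier results of these data known. All 955 list entries matched a gene of the table. Named genes are the called ones, those ranked highest by the smallest of their 3 pair differences (1 direction in all pairs, 20 reads in each library, mean log2 CPM of at least 3, 12 in each direction), up to 3 per list by unadjusted p with 1 direction in all pairs, a short list of astrocyte and marker genes and any called for the difference from astrocytes alone. This gave 136 genes, of which the text describes a selection. Hspa5, Canx, Creld2, Calr, Hsp90b1, Dnajc3, Pdia6, Nfe2l2, G6pdx, Herpud1, Asns, Atf4, Gclm, Gsr, Srxn1, Loxl2, Lox, Fbln1, Clu, Sox9, Ncam1 and Cdkn1a lie outside the rule and, like that selection, were chosen after their values were seen. Transcript lengths are from GENCODE vM21 (92.45% of genes tested). Alternatives used DESeq2 1.42.0 and limma 3.58.1; the scripts were tested on simulated data. Promoters are RefSeq sequence of GRCm38.p6, another build than that of the counts, and were joined by symbol. Some genes are not reported here; list counts and medians include them.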

Additional observations from a re-analysis of the deposited data

How the results depend on the processing

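The single call among co-cultured astrocytes was not stable. It became 0 without the replicate block, with at least 20 reads in each of the 6 libraries, with the 6 libraries compared or the 9 co-culture libraries alone, and with limma-voom. With 16 libraries it was 0 under the length offset and 0 without the block. DESeq2 gave 115 calls with 17 libraries and 20 with 16. With 16 libraries and the genes set apart kept, there were 16 calls, all 16 among the set-apart genes. Leaving out 1 library or number gave 0 to 1 calls, with 0 when replicate 1 or 2, of either day or of both, was left out. For the difference from astrocytes alone, the count of 0 became 1 at an adjusted p under 0.10 and 1 without the low-count filter, both Lce1g, 2 with DESeq2 on 16 libraries, and 15, all set apart, with those genes kept. Dropping the block for the pairing changed no other call. The medians without it were 0.72 for the A2 list and, with 16 libraries, -0.0585 for transport, -0.20 for Notch, 0.14 for glycolysis, 0.41 for chemokines and 0.0646 for lipids. Upper-quartile scaling moved the median of all genes from -0.03 to -0.14, that of Notch to -0.45 and that of lipids to -0.18; median-ratio scaling gave lipids 0.0123. The filter of 20 reads gave -0.43 for Notch, 0.0526 for immediate early genes, 0.26 for chemokines and -0.14 for lipids. The 6 libraries alone gave chemokines 0.91. Limma-voom gave 0.39 for chemokines, -0.96 for mitochondrial genes (1.03 in the reported fit) and -0.14 for lipids. The length offset gave Notch -0.0689, or -0.22 with 16 libraries. With 16 libraries, DESeq2 gave -0.43 for Notch and -0.12 for lipids, and keeping the set-apart genes -0.40 for Notch. Leaving out 1 library or number gave ranges of -0.40 to 0.0041 for Notch, -0.13 to 0.16 for cholesterol, -0.14 to 0.0614 for glycolysis, 0.17 to 0.51 for immediate early genes, 0.38 to 0.67 for A2 and 0.25 to 0.64 for chemokines. They were -3.09 to 1.40 for microglia, -0.43 to -0.0861 for phagocytic receptors, -0.31 to 0.41 for serine genes and -0.14 to 0.12 for lipids. The matrix, lectican, transport, identity, Nrf2 and unfolded protein medians kept their sign in all settings run. Over the 35 lists, 109 of 945 medians, in 17 lists, had another sign than the reported fit. Among these lists, the leave-outs ranged from -0.74 to 0.13 for cell division, from -0.66 to 0.17 for secreted synapse factors and from -1.20 to 0.52 for neurons. Of 3628 values of the 136 named genes, 73 in 23 genes had another sign than the reported fit. The cause of these differences was not tested. The median biological coefficient of variation was 0.528 with and 0.384 without replicate 1 of day 7.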
